A study of Mus musculus with 4 samples.

Results

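The genes that encode the respiratory chain and the ATP synthase of mitochondria were followed in mouse kidney cells over 7 days of glyoxylate. Members were chosen by symbol. They are every gene whose symbol starts with mt-, the prefix of the mitochondrial genome, and every nuclear gene named Ndufa, Ndufb, Ndufc, Ndufs or Ndufv with a number, Sdha to Sdhd, Uqcr, Cox4 to Cox8, or Atp5. This gave 13 mitochondrial and 84 nuclear genes, 97 of the 27998 genes in the count matrices. The nuclear members were 37 of complex I, 4 of complex II, 8 of complex III, 18 of complex IV and 17 of complex V, each placed by its symbol. The mitochondrial members were 7 of complex I (mt-Nd genes), 1 of complex III (mt-Cytb), 3 of complex IV (mt-Co genes) and 2 of complex V (mt-Atp6 and mt-Atp8).

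Kidneys came from male C57BL/6 mice, 6 to 8 weeks old, that had been injected into the peritoneum with glyoxylate, a precursor of oxalate, on 0, 1, 4 or 7 days in a row (D0, D1, D4 and D7). The labels name no other agent and no engineered allele, and do not say how many mice went into a library. Tissue was digested with trypsin and DNase, and the cells were profiled by droplet single-cell RNA sequencing, which counts unique molecular identifiers (UMIs, close to 1 per captured transcript). There was 1 library per time point and therefore no replicate, so no test was made, and a difference between days cannot be told apart from a difference between libraries, mice or dissociations. The 95% intervals given below are exact and cover counting error alone.

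Oxidative phosphorylation passes electrons from NADH through complex I, or from succinate through complex II, to complex III and then to oxygen at complex IV, and the proton gradient built on the way drives ATP synthesis at complex V. Most subunits are encoded in the nucleus and imported, while a small core is encoded in the mitochondrial genome, which is transcribed from both strands as long precursors that are later processed into single messengers. Complex II has nuclear subunits only. Kidney tubule cells are rich in mitochondria and rely on this pathway for salt and solute transport.

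The 4 libraries held 12730 to 16427 cell barcodes and 85009491 to 99337001 UMIs, and 8258 to 16015 barcodes per library reached the floor of 3000 UMIs used here. The smallest cell had 500 UMIs at D0 and D1 but 2919 at D4 and 2773 at D7, so the deposited matrices had not been limited alike. Between 50 and 81 barcodes were shared by any pair of libraries. Cells were taken by a threshold on marker UMIs: Lrp2 plus Slc34a1 at least 2 for proximal tubule, Slc12a1 at least 3 for thick ascending limb, Slc12a3 at least 3 for distal convoluted tubule, and Ptprc at least 1 for immune cells. The proximal tubule gate held 9994, 6512, 15348 and 12877 cells at D0, D1, D4 and D7. The thick limb gate held 89, 87, 105 and 169 cells, the distal gate 368, 264, 219 and 326, and the immune gate 345, 810, 526 and 719. All of each gate's own markers had UMIs (10 of 10 for proximal tubule, 6 of 6 for thick limb, 6 of 6 for distal, 10 of 10 for immune). A cell could pass more than 1 gate. At D0 36.0% of thick limb cells, 37.2% of distal cells and 56.5% of immune cells also passed the proximal tubule gate, and at D4 these shares were 55.2%, 66.2% and 80.2%. For that reason the values of these 3 gates are also given for cells outside the proximal tubule gate. In those cells the median level of 8 proximal tubule markers, those not used by the gate, was 3.3% to 7.1% of that in proximal tubule cells, against 20.5% to 70.3% in the whole gates.

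Sequences from the reference (GRCm38) are shown for the members in which the DNA bears on how the counts can be read. Among mitochondrial genes, mt-Atp8 and mt-Atp6 share 43 bases on the plus strand, chrM:7927-7969, so a read there cannot be given to either alone. The start codon of mt-Atp6 opens the shared stretch and is in capitals:

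mt-Atp8 and mt-Atp6: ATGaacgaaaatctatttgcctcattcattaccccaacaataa

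The genes mt-Nd4l and mt-Nd4 share 7 bases (chrM:10167-10173), and mt-Atp6 and mt-Co3 share 1. Only mt-Nd6 lies on the minus strand (chrM:13552-14070). Among nuclear members, promoters are shown because factors that act on many respiratory chain genes at once are known: NRF1, GABPA, YY1 and the estrogen-related receptor alpha. RefSeq promoter sequences, from 250 bases before to 50 after the start site, matched 66 of the 84 nuclear members by symbol. The NRF1 word GCATGCGC, or GCGCATGC on the other strand, stood in 10 of the 66, or 15.2%, against 3.05% of all 27025 promoters. Those 10 were Atp5g2, Atp5k, Atp5l, Cox6a1, Ndufa11, Ndufa6, Ndufa8, Sdhb, Uqcr11 and Uqcrc1. The YY1 word AAGATGGC (or GCCATCTT) stood in 9, or 13.6%, against 3.19%. The receptor word AAGGTCA (or TGACCTT) stood in 8, or 12.1%, against 5.38%, and the GABPA word CCGGAAGT (or ACTTCCGG) in 5, or 7.58%, against 4.31%. A matching word is a description of the letters and not evidence of binding. The promoters of Sdhb, Uqcrc1 and Cox6a1 are printed 5′ to 3′ along the gene as examples, because Sdhb and Cox6a1 are among the members with the largest differences between days below and Uqcrc1 is among those of the thick limb. Capitals mark the NRF1 word, which overlaps its own reverse in Uqcrc1 and Cox6a1:

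Sdhb, chr4:140961021-140961320, plus strand: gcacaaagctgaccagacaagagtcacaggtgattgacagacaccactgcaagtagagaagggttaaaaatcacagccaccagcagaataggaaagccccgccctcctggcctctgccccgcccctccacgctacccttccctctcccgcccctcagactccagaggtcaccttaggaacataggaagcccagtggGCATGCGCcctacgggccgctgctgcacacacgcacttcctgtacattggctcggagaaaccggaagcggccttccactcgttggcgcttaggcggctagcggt

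Uqcrc1, chr9:108936398-108936697, plus strand: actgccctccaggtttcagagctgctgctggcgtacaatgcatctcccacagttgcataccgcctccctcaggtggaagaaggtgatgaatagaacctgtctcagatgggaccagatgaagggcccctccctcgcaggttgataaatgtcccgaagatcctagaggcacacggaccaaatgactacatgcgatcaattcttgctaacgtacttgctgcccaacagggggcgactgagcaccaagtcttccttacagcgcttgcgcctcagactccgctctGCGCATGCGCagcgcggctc

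Cox6a1, chr5:115348909-115349208, minus strand: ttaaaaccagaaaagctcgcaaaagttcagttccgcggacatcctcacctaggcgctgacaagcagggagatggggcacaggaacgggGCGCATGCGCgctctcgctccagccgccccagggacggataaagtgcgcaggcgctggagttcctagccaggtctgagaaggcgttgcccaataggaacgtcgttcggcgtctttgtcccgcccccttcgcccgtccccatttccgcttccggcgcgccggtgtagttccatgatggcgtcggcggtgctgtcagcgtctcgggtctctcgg

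The first match began 54 bases before the start site in Sdhb and 162 before it in Cox6a1, and 30 bases after it in Uqcrc1.

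The 13 mitochondrial genes took the largest share of UMIs at D0 in each of the 4 gates. In proximal tubule cells, which reabsorb most of the filtrate, they made up 21.5% of all UMIs at D0, 13.4% at D1, 18.6% at D4 and 19.7% at D7. The D1 library was thus 0.625 of D0, and D4 and D7 lay nearer to D0, at 0.863 and 0.917. The median cell gave another order: 16.3% at D0, 10.0% at D1, 17.0% at D4 and 18.1% at D7. Cells with over 50% mitochondrial UMIs were 9.51% of the gate there, 5.14% at D1, 1.52% at D4 and 3.05% at D7. Without those cells the ratios to D0 were 0.657 at D1, 1.05 at D4 and 1.09 at D7, so the direction at D4 and D7 rested on them, while D1 was lowest in either reading. Median UMIs per cell in this gate were 7132, 8658, 5066 and 5822, and their part in the result was not tested. In cells with the early segment transporters Slc5a2 and Slc5a12 the share was 25.1%, 15.2%, 18.1% and 19.8%. In cells with Slc7a13, a late segment transporter, it was 19.4%, 13.6%, 19.4% and 20.7%, or 0.701, 0.999 and 1.06 of D0. By summed share the early segment cells were thus below D0 at all 3 later times, while the late segment cells were well below it at D1 only. The cell medians were 17.5%, 11.7%, 16.9% and 18.1% in early and 17.1%, 12.0%, 18.0% and 19.4% in late segment cells, so both were above D0 at D7. Cells with over 50% mitochondrial UMIs were 9.82% of early segment cells at D0 and 2.21% at D7, against 4.82% and 2.30% of late segment cells. Whether the segments differ was not tested.

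In the thick limb and distal gates the share was lower than at D0 on every later day. Thick limb cells, which drive the concentrating gradient of the medulla through the Slc12a1 cotransporter, had 29.4% mitochondrial UMIs at D0, then 17.0%, 16.6% and 17.9%. The ratios to D0 were 0.580, 0.566 and 0.611 (interval 0.607 to 0.615 at D7). Distal cells, which take up sodium through Slc12a3, had 36.1%, 30.8%, 23.3% and 24.0%, or 0.855, 0.645 and 0.664 of D0. In the thick limb the lower level was reached at D1, whereas in the distal gate the larger part came between D1 and D4. Cells outside the proximal tubule gate were likewise below D0 on every later day, with 31.8%, 18.6%, 15.2% and 16.7% in the thick limb and 41.0%, 34.1%, 28.8% and 26.1% in the distal gate. There the ratios at D7 were 0.526 and 0.638. Cell medians fell alike, from 27.4% to 15.0% in the whole thick limb gate and from 36.9% to 21.9% in the distal gate between D0 and D7. Cells with over 50% mitochondrial UMIs were 14.6% of the thick limb gate at D0 and 0.952% at D4, and 24.2% and 6.39% of the distal gate. Without them the D7 ratios were 0.673 and 0.720.

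**Figure D1:**
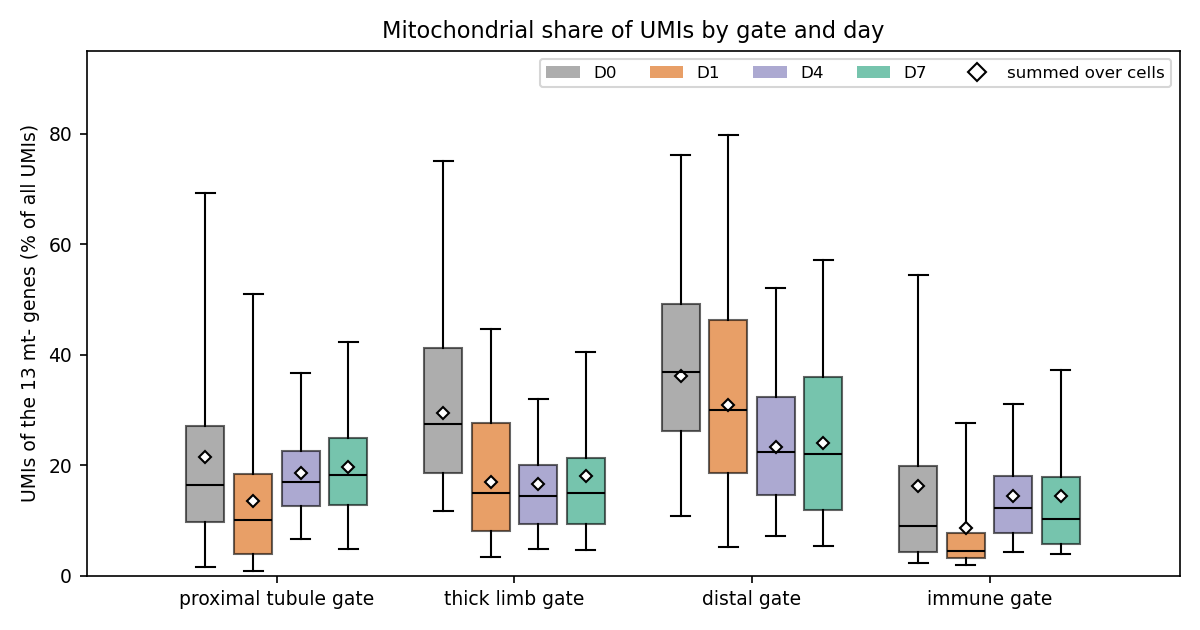
Share of UMIs from the 13 mitochondrial genes (percent of all UMIs, y axis) in the 4 gates (x axis), coloured by day. Diamonds give the share summed over cells, boxes the median and quartiles over single cells and whiskers the 5th and 95th percentiles, which are not a replicate error; the summed share goes from 21.5% to 13.4% at D1 and to 19.7% at D7 in the proximal tubule gate, while the thick limb and distal gates lie below their D0 values of 29.4% and 36.1% on every later day.

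Immune cells had 16.3%, 8.59%, 14.4% and 14.5%, with ratios of 0.528, 0.888 and 0.892. Without cells over 50% mitochondrial UMIs the D4 and D7 ratios turned to 1.07 and 1.02, and the cell medians, at 9.06%, 4.49%, 12.2% and 10.2%, likewise put D4 and D7 above D0. These cells carried proximal tubule RNA: the median level of the same 8 markers was 54.5%, 41.4%, 70.3% and 53.0% of that in proximal tubule cells. Outside the proximal tubule gate the immune share was 13.6%, 7.15%, 9.92% and 9.92%, with 150, 496, 104 and 272 cells and cell medians of 5.20%, 4.15%, 6.08% and 6.00%. Their make-up differed between days, with cells that carried phagocyte genes at 44.7%, 40.7%, 55.8% and 72.8% and cells that carried lymphocyte genes at 34.7%, 47.4%, 30.8% and 11.8%. Phagocyte cells had 11.4%, 4.98%, 9.84% and 7.46% mitochondrial UMIs, and lymphocyte cells 11.7%, 8.76%, 10.1% and 13.7%, the latter from 32 cells at D4 and at D7. The D1 value was the lowest of the 4 in both parts. The cell medians in the phagocyte part ran from 3.41% to 6.08% and gave D4 and D7 above D0 (3.91%).

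Within the mitochondrial UMIs, several genes differed between D1 and D0 in the same direction in every population. The 7 populations compared were the 4 gates and 3 of them without proximal tubule cells, so they share cells and are no replicates of each other. The complex I gene mt-Nd4 made up 8.49% of mitochondrial UMIs in the proximal tubule gate at D0, 10.2% at D1, 7.77% at D4 and 7.32% at D7. Its D1 value was above D0 in all 7 populations, by 1.15 to 1.22 times, and its D7 value was below D0 in all 7, at 0.860 to 0.947. The complex IV gene mt-Co3 ran the other way at D1, with 18.7%, 16.0%, 18.5% and 19.2% in the proximal tubule gate and 0.853 to 0.886 of D0 across the 7 populations. The complex I gene mt-Nd3 followed mt-Co3 at D1, with 1.94%, 1.52%, 2.08% and 1.82%, and 0.752 to 0.818 of D0 across the populations. Complex V's mt-Atp6, with 20.5%, 19.4%, 21.7% and 22.3%, was at 0.902 to 0.956 of D0 on D1 and 1.02 to 1.10 on D7. These shares sum to 100%, so a higher share of 1 gene lowers the others.

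Members of 1 complex differed in direction. Of the complex I genes, mt-Nd5 (1.28%, 1.54%, 1.24% and 1.07% in the proximal tubule gate) and the minus-strand mt-Nd6 (0.0686%, 0.0845%, 0.0742% and 0.0604%) were above D0 at D1 with mt-Nd4, while mt-Nd3 was below it. At D1 the range over the 7 populations was 1.11 to 1.38 for mt-Nd5 and 1.23 to 1.95 for mt-Nd6. The complex IV gene mt-Co1, which encodes the catalytic subunit, had 8.45%, 8.77%, 7.89% and 7.58%. It was at 1.04 to 1.18 of D0 across the populations at D1, opposite to mt-Co3. The remaining complex IV gene mt-Co2 had 14.6%, 14.8%, 14.5% and 15.1%, and was at 1.02 to 1.08 of D0 in all 7 populations at D7. Complex III's mt-Cytb stood at 12.2%, 13.4%, 12.5% and 12.3%. The complex I genes mt-Nd1 (5.47%, 5.96%, 5.51% and 5.41%) and mt-Nd2 (7.30%, 7.38%, 7.19% and 7.05%) were within 10% of D0 on each day in this gate. The small, overlapping genes mt-Nd4l (0.835%, 1.00%, 0.903% and 0.648%) and mt-Atp8 (0.109%, 0.121%, 0.140% and 0.123%) were the farthest from D0 in relative terms in this gate, mt-Atp8 at D4 and mt-Nd4l at D7. At D4 mt-Atp8 was at 1.29 to 1.82 of D0 over the 7 populations, and at D7 mt-Nd4l was at 0.653 to 0.934. Both overlap a neighbour by the bases given above.

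For some genes the D1 mix was also seen within groups of cells ordered by mitochondrial share. Proximal tubule cells were divided within each library into 4 equal groups ordered by mitochondrial share. The groups are not matched between libraries, with median shares from 4.78% to 42.7% at D0 and from 1.67% to 29.3% at D1. Across the groups mt-Nd4 took 8.39% to 8.66% at D0 and 9.77% to 10.2% at D1, so the ranges did not overlap. For mt-Co3 they were 18.6% to 19.5% at D0 and 15.8% to 17.5% at D1. The ranges of mt-Nd1, mt-Nd3, mt-Nd4l, mt-Nd6, mt-Atp6 and mt-Cytb also lay apart. Those of mt-Nd2, mt-Co1, mt-Co2, mt-Atp8 and mt-Nd5 overlapped, with mt-Nd5 at 1.21% to 1.40% at D0 and 1.38% to 1.63% at D1.

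**Figure D2:**
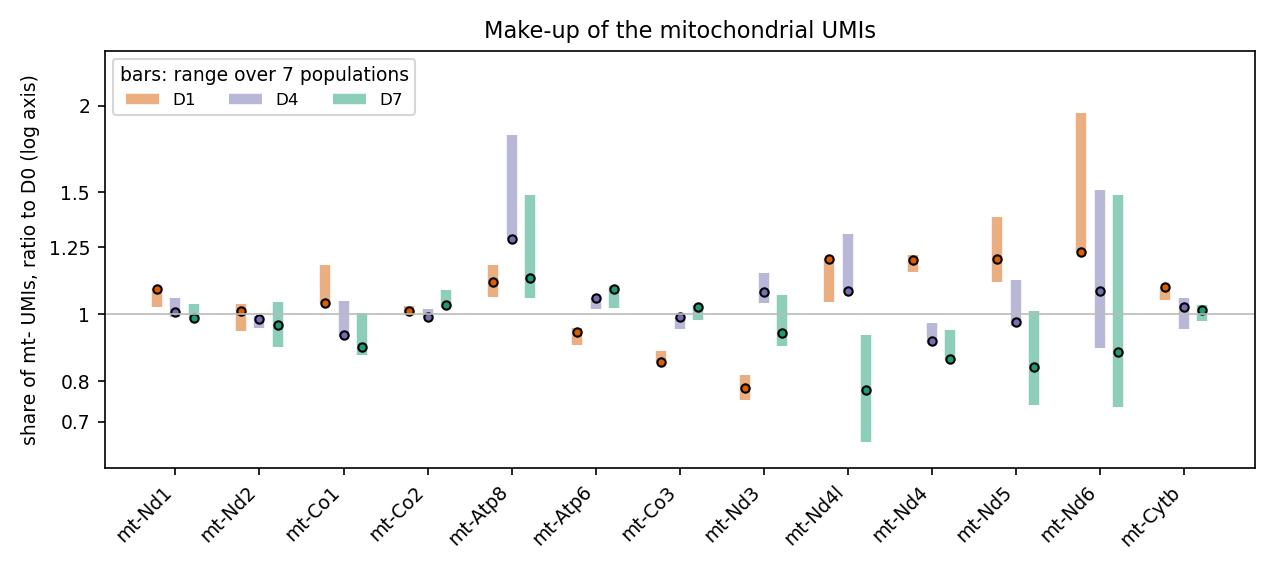
Each mitochondrial gene's share of the mitochondrial UMIs as a ratio to D0 (y axis, log scale) at D1, D4 and D7, with genes in genome order on the x axis; bars span the 7 populations and points mark the proximal tubule gate. At D1 mt-Nd4 lies at 1.15 to 1.22 and mt-Co3 at 0.853 to 0.886 over the populations, and mt-Atp8 is at 1.29 to 1.82 at D4.

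The nuclear members were counted per 1000000 non-mitochondrial UMIs (CPM), so that the mitochondrial share does not enter their level. In proximal tubule cells their sum was 75299.9 CPM at D0, 76805 at D1, 72349 at D4 and 69990.3 at D7. The ratios to D0 were 1.02, 0.961 and 0.929, so at D1 the nuclear sum was slightly above D0 while the mitochondrial share was at 0.625 of it. Thick limb cells had 102640, 75595, 85979 and 82061 CPM, or 0.737, 0.838 and 0.80 of D0. Distal cells had 127571, 110678, 94990.3 and 96169 CPM, or 0.868, 0.745 and 0.754. Immune cells had 52874, 45233, 55400.3 and 46077 CPM, or 0.855, 1.05 and 0.871. In the thick limb gate the nuclear sum was thus lowest at D1, and in the distal gate at D4.

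Outside the proximal tubule gate the thick limb sum was 111790, 77411, 90412 and 82634 CPM and the distal sum 142991, 117580, 113894 and 112776 CPM. Their D7 ratios were 0.739 and 0.789. Immune cells outside it had 35528, 28241, 37443 and 29976 CPM, or 0.795, 1.05 and 0.844. Split by marker, the phagocyte part had 25295, 26075, 30489.9 and 27406 CPM (1.03, 1.21 and 1.08 of D0) and the lymphocyte part 35385.5, 27551, 45527 and 37106 (0.779, 1.29 and 1.05). Both of these parts were above D0 at D7 while the whole was below it. The whole also held cells of neither part, 20.7% of it at D0 and 15.4% at D7, whose level is not given. The share of phagocyte cells, whose level was below that of the lymphocyte part, was 72.8% at D7 against 44.7% at D0. The role of this make-up in the level of the whole was not tested.

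Other RNA moved in the same gates. Malat1, a nuclear long non-coding RNA often used as a sign of nuclear RNA content, was at 60217.5, 110374, 97281 and 90816 CPM in thick limb cells and at 66731, 84910, 85643 and 79358 in distal cells. Fos plus Jun, which dissociation can induce, were at 1499, 2479, 3050.3 and 3382 CPM in thick limb and at 805, 1264, 2338 and 2839 in distal cells. The gates' own transporters were lower as well, with Slc12a1 at 3928, 2581, 2084 and 1982 CPM in thick limb cells and Slc12a3 at 3749, 3011, 2039.71 and 2329.53 in distal cells. The summed markers of the thick limb were 19650, 16864, 15820.2 and 15315 CPM, and those of the distal tubule 17547, 15639, 13599.8 and 16534. Markers of other cell types moved too. The 10 immune markers summed to 247, 1007, 652 and 281 CPM in thick limb cells (8 to 10 of them with UMIs) and to 91.9, 494, 200.1 and 189 CPM in distal cells (9 to 10). Outside the proximal tubule gate these sums were 448, 1222, 1347 and 438 CPM in thick limb cells and 108, 518, 546 and 96.5 CPM in distal cells, highest at D1 and D4. The 10 proximal tubule markers summed to 3969, 2484.5, 4009.92 and 2799.72 CPM in the thick limb gate and to 3486, 1978, 5252 and 3209 CPM in the distal gate, and the 6 thick limb markers to 7217, 7126, 5139 and 5817 CPM in the distal gate. The 4 intercalated cell markers were at 5.20, 2.03, 58.6 and 81.9 CPM in distal cells. Endothelial, podocyte and mesenchymal markers were at 0 in the thick limb gate on all days and at most 1.35 CPM in the distal gate. In the proximal tubule gate Malat1 was at 65642, 54929, 71741 and 54570 CPM, and Fos plus Jun were at 860, 736, 1748 and 1699 CPM. The 10 proximal tubule markers summed there to 11973, 9440, 10462 and 9485 CPM, and the 10 immune markers to 149, 422, 235 and 447 CPM. The part of all these genes in the nuclear sums was not tested.

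**Figure D3:**
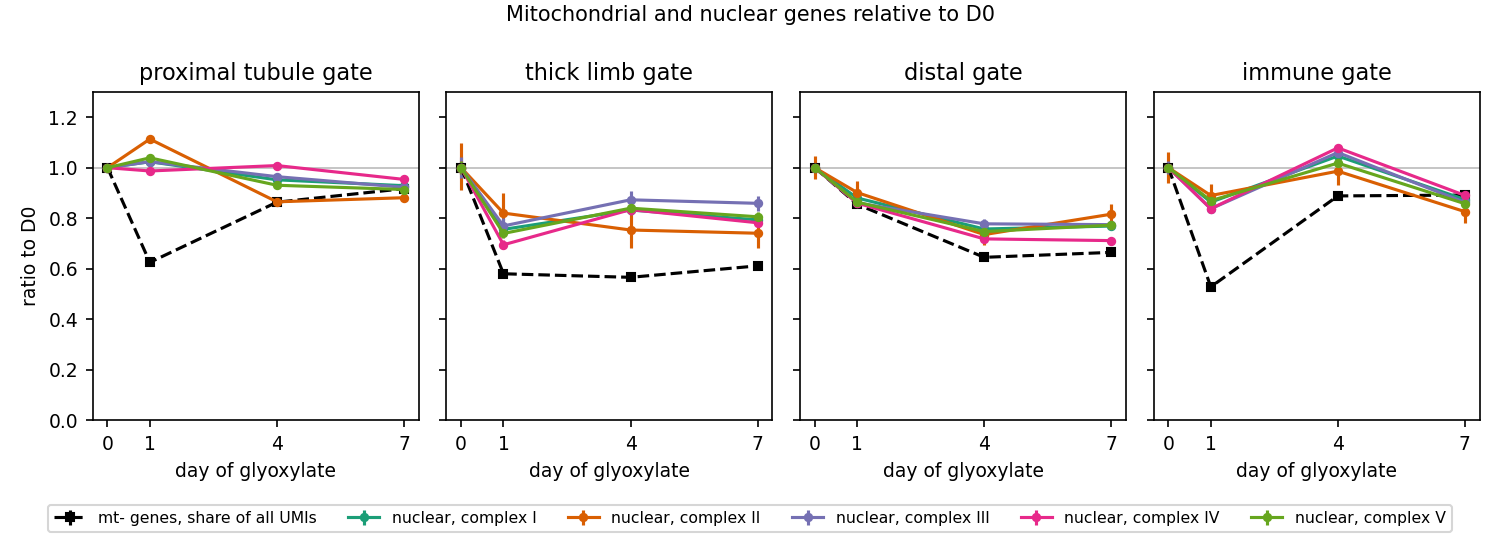
Ratio to D0 (y axis) by day of glyoxylate (x axis) in each gate, for the mitochondrial share (dashed) and for the summed CPM of the nuclear members of complexes I to V, with exact 95% counting intervals as bars. At D1 the proximal tubule mitochondrial share lies at 0.625 while complex II is at 1.11, and in the thick limb gate complex IV is lowest at D1, at 0.695.

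The ratio of mitochondrial to nuclear UMIs sets the genomes side by side. It was 3.64, 2.02, 3.15 and 3.51 in proximal tubule cells, 4.05, 2.71, 2.32 and 2.67 in thick limb cells, 4.42, 4.03, 3.19 and 3.28 in distal cells, and 3.68, 2.08, 3.05 and 3.68 in immune cells. In these whole gates proximal tubule and immune cells were lowest at D1, and thick limb and distal cells at D4. Outside the proximal tubule gate the ratio was 4.18, 2.95, 1.98 and 2.43 in thick limb cells, 4.86, 4.40, 3.55 and 3.14 in distal cells, and 4.42, 2.73, 2.94 and 3.68 in immune cells. There distal cells were lowest at D7, and immune cells stood at 0.832 of D0 at D7. The phagocyte part went from 5.09 at D0 to 2.94 at D7, or 0.577, and the lymphocyte part from 3.74 to 4.28, or 1.14. The phagocyte part held 67 cells at D0 and 198 at D7. Its median cell had 159 mitochondrial UMIs at D0 and 248 at D7, at 3622 and 3595 non-mitochondrial UMIs, so the lower summed ratio was not seen in the median cell. By complex, the D1 value in proximal tubule cells was lower in all 4 complexes that have mitochondrial genes, from 2.76 to 1.67 for complex I, 3.70 to 2.24 for complex III, 5.80 to 3.15 for complex IV and 2.86 to 1.47 for complex V. At D7 these were 2.46, 3.64, 5.45 and 3.05.

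A nuclear member counted as higher where its CPM plus 1 was at least 25% above D0, and as lower where it was at least 20% below. Only genes that reached 50 UMIs over the D0 library and the later one were counted. Enough UMIs were found for 79 of the 84 nuclear members in the proximal tubule gate, 76 in the thick limb, 77 in the distal and 78 in the immune gate. Cox4i2, Cox7b2, Cox8b, Cox8c and Ndufa4l2 were at or near 0 in all. The 3 later days share the D0 library, so their values are given side by side and not as repeats. In proximal tubule cells at D1, 2 of 79 members were higher (9.4% of all genes tested) and 1 was lower (8.77%), namely Cox6b2 and Sdhd against Cox7a1. At D4 it was 1 higher (12.4%) and 1 lower (4.52%), and at D7 1 higher (20.4%) and 1 lower (5.42%). At 1.5-fold the D7 counts were also 1 and 1 (9.57% and 1.59%), and at D4 and D7 the members were Cox6b2, higher, and Cox6a2, lower. Most members lay a little below D0 at D7, with 71 of 79 under it, against 33.1% of all genes, and a median log2 ratio of -0.12 against 0.10. When trimmed-mean (TMM) scaling was used instead, it moved all genes of this gate by -0.12 on the log2 scale and gave 13 members lower in place of 1, while 7 members changed direction.

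In thick limb cells 51 of 76 members were lower at D1 (24.8% of all genes), 28 at D4 (25.4%) and 39 at D7 (24.8%), and 1, 0 and 0 were higher (16.8%, 14.9% and 19.2%). The higher one was Atp5sl, from 42 UMIs at D0 and 76 at D1. The annotation names this gene Dmac2, and it was counted to complex V by its symbol alone. All 3 shares of lower members were above the background. The median log2 ratio of the members was -0.41, -0.26 and -0.33, against -0.07, -0.09 and -0.04 over all genes. At D7, 75 of 76 were below D0. With TMM scaling the D4 count was 15 and the D7 count 28. The D7 count was 23 with doubled marker thresholds, and outside the proximal tubule gate it was 54 of 75 (30.7%), after 59 of 75 at D1 (28.7%) and 37 of 74 at D4 (30.8%). In distal cells 6 of 77 were lower at D1 (19.3%), 58 at D4 (22.3%) and 50 at D7 (16.5%), and none was higher (15.5%, 20.1% and 21.4%). The medians were -0.19, -0.42 and -0.37, against -0.02, -0.03 and 0.04. The share was under the background at D1 and above it at D4 and D7. Of distal members outside the proximal tubule gate 22 of 76 were lower at D1 (18.5%), 39 at D4 (28.4%) and 34 at D7 (21.3%), so there the D1 share was above the background as well. In immune cells 13 of 78 were lower at D1 (18%), 1 at D4 (16.5%) and 9 at D7 (15.4%), and 0, 1 and 1 were higher (17.4%, 17.8% and 18.1%). In the whole gate these shares were under the background, and the member higher at D4 and D7 was again Cox6b2, with Cox6a2 the lower one at D4. Most members still lay a little below D0 at D1 and D7. The medians were -0.22, 0.03 and -0.21, against 0.00 over all genes on each day. Below D0 were 73, 29 and 75 of the 78 members, against 49.5%, 49.4% and 49.3% of all genes. Outside the proximal tubule gate the counts were different: 38 of 76 immune members were lower at D1 (17.2%), 1 of 74 at D4 (19.8%) and 23 of 75 at D7 (25.8%), and 8 of 74 were higher at D4 (20.2%). The D1 share was 50.0% there, well above the background.

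**Figure D4:**
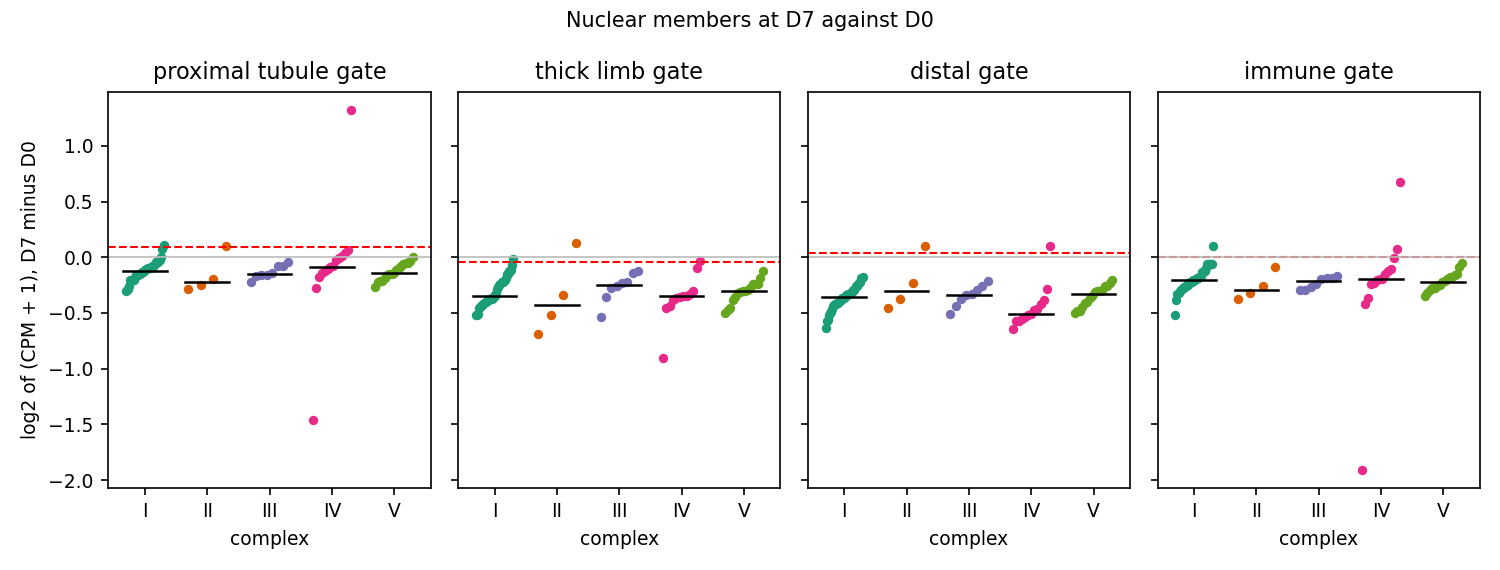
Log2 difference in CPM plus 1 between D7 and D0 (y axis) of each measured nuclear member (points), by complex (x axis) and gate; black lines are medians of a complex and red dashed lines medians of all genes. The medians over all members are -0.12 in the proximal tubule, -0.33 in the thick limb and -0.37 in the distal gate, and Cox6b2 (up) and Cox6a2 (down) are the outermost points of the proximal tubule gate.

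Complex I, the NADH dehydrogenase, was at 0.929 of D0 in summed CPM at D7 in proximal tubule cells, 0.793 in thick limb and 0.769 in distal cells. The subunits below the threshold at D7 were 19 of 36 in thick limb cells (24.8% of all genes) and 24 of 36 in distal cells (16.5%), with medians of -0.35 and -0.36 on the log2 scale against -0.04 and 0.04 over all genes. Ndufa1, an accessory subunit encoded on the X chromosome (chrX:37187588-37191163, minus strand), had 1305 CPM in distal cells at D0, then 1231, 842 and 842. Its ratio at D7 was 0.64 (0.60 to 0.69), and D4 and D7 lay apart from D0 and D1. In the thick limb outside the proximal tubule gate Ndufa1 was at 1.08 at D7, the opposite side of D0. Ndufv1, which binds NADH and the flavin, had 327, 274, 291 and 324 CPM in thick limb cells, and its D7 ratio of 0.99 (0.81 to 1.22) spanned 1. In proximal tubule cells the lowest complex I ratio at D7 among those named was that of Ndufv3, at 0.811. Ndufb8 was on the other side, at 1.08, and at 0.999 with TMM scaling. Ndufb8 shares 4260 bases with Gm20538 on the same strand, and 12 members in all overlap another gene on their own strand. In immune cells Ndufs1, the largest subunit, had 94.2, 68.6, 99.9 and 65.6 CPM, with a D7 ratio of 0.70 (0.57 to 0.85), and Ndufb8 had 639, 580, 729 and 686, with 1.07 (1.00 to 1.15).

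Complex II, succinate dehydrogenase, also belongs to the citric acid cycle. Its 4 subunits summed to 0.881 of D0 in proximal tubule cells at D7, after 1.11 at D1, and to 0.740 in thick limb and 0.816 in distal cells at D7. The iron-sulfur subunit Sdhb (chr4:140961203-140979193, plus strand) had 590, 667, 525 and 497 CPM in proximal tubule cells, with a D7 ratio of 0.84 (0.83 to 0.85). In thick limb cells it had 863, 637, 594 and 535 CPM, with 0.62 (0.54 to 0.71), and it was at 0.538 outside the proximal tubule gate, among the lowest members there. Sdhb was therefore lower at D7 than at D0 in both, and in distal cells too (829, 766, 574 and 605 CPM, ratio 0.73). The membrane anchor Sdhd (chr9:50596357-50603812, minus strand) did not follow it. Sdhd had 304, 353, 301 and 332 CPM in thick limb cells, with a D7 ratio of 1.09 (0.89 to 1.35), and 318, 369, 249 and 342 in distal cells, with 1.07 (0.95 to 1.21). Both intervals held 1. For Sdhd in proximal tubule cells the values were 265, 342, 232 and 284 CPM, with a D7 ratio of 1.07 that was 0.988 with TMM scaling. The other anchor, Sdhc, had 403, 449, 325 and 331 CPM there (0.82), and the flavoprotein Sdha 321, 300, 283 and 280. In proximal tubule cells Sdhb, Sdhc and Sdha were thus below D0 at D7, while the side of D0 on which Sdhd lay depended on the scaling.

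Complex III, the cytochrome bc1 complex, was at 0.922, 0.859 and 0.774 of D0 at D7 in proximal tubule, thick limb and distal cells. Its subunits below the threshold were 2 of 8 in thick limb cells, at the background of 24.8%, and 5 of 8 in distal cells, where the background was 16.5%. The core subunit Uqcrc1 (chr9:108936633-108949623, plus strand) had 510, 367, 401 and 351 CPM in thick limb cells, with a D7 ratio of 0.69 (0.58 to 0.82), and was among the lowest members there. In distal cells it had 553, 506, 442 and 462 CPM (0.84). Uqcr10, a small subunit, had 1817, 1839, 1897 and 1760 CPM in proximal tubule cells (0.97), within 5% of D0 each day. Uqcrfs1, the Rieske iron-sulfur protein, was less even there, with 744, 915, 602 and 638 CPM.

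Complex IV, cytochrome c oxidase, was at 0.954 of D0 in proximal tubule cells at D7 and at 0.782 and 0.711 in thick limb and distal cells. In distal cells 11 of its 13 measured subunits were below the threshold (16.5% of all genes), with a median log2 ratio of -0.51 against 0.04 over all genes. The thick limb count was 9 of 12 (24.8%), with -0.35 against -0.04. Cox4i1, the first nuclear subunit in assembly, had 2623, 2468, 2815 and 2700 CPM in proximal tubule cells (1.03), 4274, 2696, 3266 and 3156 in thick limb cells (0.74) and 5220, 4315, 3703 and 3677 in distal cells (0.70). Cox8a, a small membrane subunit, had 3272, 3164, 3252 and 3041 CPM in proximal tubule cells (0.93), 4900, 3472, 4054 and 3752 in thick limb cells (0.77) and 6125, 5260, 4348 and 4217 in distal cells (0.69). Both were flat in the proximal tubule. In the thick limb gate both were lowest at D1, and in the distal gate they stepped down by D4. Ndufa4 is now assigned to complex IV, but by its symbol it was counted here to complex I and is not in the complex IV values. It had 2955, 2896, 2807 and 2768 CPM in proximal tubule cells (0.94) and 4245, 3477, 3263 and 3182 in distal cells (0.75). Cox6a1 (chr5:115345642-115348981, minus strand), the isoform of most tissues, had 1986, 1656, 1276 and 1336 CPM in distal cells, with a D7 ratio of 0.67 (0.64 to 0.71). In thick limb cells its values were 1197, 962, 1083 and 1117 CPM (0.93), and in proximal tubule cells 983, 869, 1008 and 988 (1.01), so the distal ratio was the lowest of these 3. Cox7a2l (chr17:83501918-83517330, minus strand), a factor of supercomplex assembly, was above D0 at D7 in distal cells, with 345, 328, 369 and 369 CPM, but its interval held 1 (1.07, 0.95 to 1.2).

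Isoforms known from muscle, heart or testis gave the widest ratios in the proximal tubule and immune gates. Cox6b2, the testis form of Cox6b (chr7:4751792-4753094, minus strand), had the highest D7 ratio of all members in proximal tubule cells, with 12.7, 17.1, 33.9 and 33.2 CPM from 828, 993, 2403 and 2282 UMIs. The D7 ratio was 2.62 (2.42 to 2.84), and D4 and D7 both lay above D0 and D1. In cells with Slc7a13 it went from 7.05 CPM at D0 to 9.89, 29.4 and 27.4, a D7 ratio of 3.89 (3.36 to 4.51). In cells with Slc5a2 and Slc5a12 it was 20.8, 26.8, 26.2 and 30.5 CPM, a ratio of 1.47 (1.26 to 1.71). Proximal tubule cells in neither segment group went from 17.0 CPM at D0 to 41.9 at D7, a ratio of 2.46 (2.16 to 2.82). They had the highest D7 level of these groups and held 1033 of the 2282 UMIs at D7. The intervals cover counting error alone, and whether the segments differ in Cox6b2 was not tested. The common form Cox6b1 had 1580, 1585, 1528 and 1485 CPM in the whole gate (0.94). In distal cells Cox6b2 had 29.5, 14.2, 28.3 and 21.7 CPM, with a D7 ratio of 0.74 whose interval (0.46 to 1.16) held 1. In the immune gate, where proximal tubule RNA was also found, it had 12.7, 13.1, 31.0 and 20.8 CPM, with 1.64 (1.03 to 2.71).

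Cox6a2, the heart and muscle form of Cox6a (chr7:128205435-128206387, minus strand, inside Itgad on the opposite strand), had the lowest D7 ratio in both the proximal tubule and the immune gate. The proximal tubule gate had 7.89, 6.43, 2.78 and 2.23 CPM from 515, 374, 197 and 153 UMIs, a D7 ratio of 0.28 (0.23 to 0.34). In immune cells it had 85.7, 71.6, 19.9 and 22.1 CPM, with 0.26 (0.20 to 0.34), and in immune cells outside the proximal tubule gate 176, 124, 50.1 and 27.5 CPM, with 0.156. Those UMIs sat in few cells. Cells with Siglech, a marker of plasmacytoid dendritic cells chosen after the values were seen, were 18 of 150 at D0, 40 of 496 at D1, 3 of 104 at D4 and 12 of 272 at D7. They held 102 of 104, 305 of 310, 20 of 20 and 28 of 31 of the Cox6a2 UMIs. In the other immune cells its level was 3.82, 2.21, 0 and 2.77 CPM. Cox7a1, the muscle form of Cox7a (chr7:30184144-30186078, plus strand), had 88.4, 64.2, 74.8 and 56.3 CPM in distal cells, with a D7 ratio of 0.64 (0.48 to 0.83). In thick limb cells it had 103, 30.4, 62.7 and 54.7 CPM, lowest at D1, from 45 UMIs at D0 and 51 at D7. Proximal tubule cells had 44.2, 33.9, 44.7 and 36.3 CPM of Cox7a1 (0.82), and 1805, 1854, 1782 and 1707 CPM of Cox7a2 (0.95).

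Outside the proximal tubule gate the extreme members at D7 were partly others. In thick limb cells Ndufs4, an accessory subunit of complex I, was at 0.593 of D0 beside Sdhb at 0.538, and Sdhd was at 0.994. In distal cells Ndufv3 was at 0.635 and Ndufa1 at 0.681, while Cox7a2l and Sdhd were at 1.17 and 1.2. Sdhd and Cox7a2l thus stood above the other distal members with and without proximal tubule cells. In immune cells Ndufa4 was at 0.604, and Cox7a2l and the complex I subunit Ndufc2 were at 1.12 and 1.18.

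Complex V, the ATP synthase, was at 0.914, 0.805 and 0.772 of D0 at D7 in proximal tubule, thick limb and distal cells, with 6 of 16 measured members below the threshold in the thick limb gate (24.8% of all genes) and 8 of 16 in the distal gate (16.5%). Atp5e, the epsilon subunit of the rotor, had 1961, 2066, 1818 and 1681 CPM in proximal tubule cells (0.86) and 3327, 2904, 2386 and 2379 in distal cells (0.72). The genes Atp5g1, Atp5g2 and Atp5g3 encode the same mature c-ring protein. In distal cells Atp5g1 had 3629, 2999, 2534 and 2562 CPM (0.71), Atp5g2 1034, 1047, 859 and 879 (0.85) and Atp5g3 1605, 1385, 1182 and 1242 (0.77). All 3 were lower at D4 and D7 than at D0. Their D7 ratios in proximal tubule cells were 0.91, 1.00 and 0.95.

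The nuclear level was also compared between cells of 1 library that differ in mitochondrial share. Among proximal tubule cells the lowest of the 4 equal groups had the highest nuclear sum at D0 and D1, with 83140.8 CPM at a median mitochondrial share of 4.78% and 86173 CPM at 1.67%. The next group had 68436.6 and 72831.9 CPM, and the top group 77721.9 and 75765.1. At D4 and D7 the order was different: the top group, at 28.2% and 31.3% mitochondrial UMIs, had the highest nuclear sum, with 79167.7 and 75666.1 CPM. All 16 values lay between 66011.5 and 86173 CPM. On each day Malat1 was lowest in the group with the highest nuclear sum, at 41002, 13819, 47269 and 41662 CPM, and its part was not tested.

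Distal cells outside the proximal tubule gate spread more widely. At D7 the 4 groups had median mitochondrial shares of 7.03%, 15.4%, 32.8% and 49.0% and nuclear sums of 93871.5, 89459.2, 136393 and 156759 CPM. At D0 the median shares were 20.4%, 34.7%, 46.6% and 65.6% and the sums 127427, 152289, 159380 and 129085 CPM. The D7 groups with low mitochondrial shares had no match at D0, where the lowest group was at 20.4%. The D7 group at 32.8% had 136393 CPM, against 152289 CPM in the D0 group at 34.7%. The D7 group at 49.0% had 156759 CPM, against 159380 CPM in the D0 group at 46.6%. At D7 Malat1 was at 118638 CPM in the lowest group and 21232 in the highest, and its part was not tested. The groups held 43 to 44 cells at D7 and 57 to 58 at D0.

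**Figure D5:**
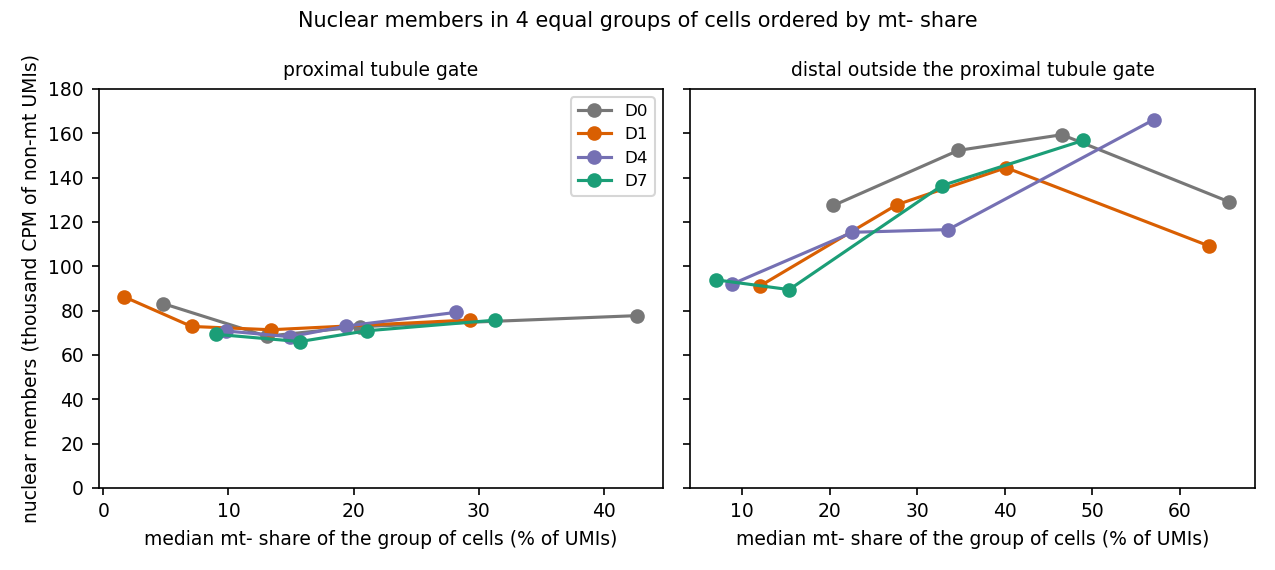
Summed nuclear members (CPM divided by 1000, y axis from 0) against the median mitochondrial share (percent of UMIs, x axis) in 4 equal groups of cells per library (points, joined by day), for the proximal tubule gate and for distal cells outside it. Proximal tubule values lie between 66011.5 and 86173 CPM, and distal values at D7 run from 89459.2 to 156759 CPM.

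Genes that build or serve the chain without being members were listed with earlier results known. In proximal tubule cells at D7 the median log2 ratios of their 8 lists ran from -0.11 to 0.08, beside 20.4% of all genes higher and 5.42% lower. The list calls use CPM and were not repeated with TMM scaling, which moved all genes of this gate by -0.12 on the log2 scale. Counts of genes that passed, also where none passed, therefore hold for CPM alone. Of complex I assembly factors 0 of 13 were higher and 1 lower, Acad9, which went from 32.1 to 23.5 CPM (0.73). Of 31 assembly factors of complexes II to V none passed in either direction. Among 18 genes of mitochondrial transcription and its regulators 2 were higher and 0 lower: Nrf1, the factor whose word is shown above, went from 9.50 to 13 CPM (1.36, 1.23 to 1.51), and Pprc1, a relative of the coactivator PGC-1 alpha, from 3.14 to 4.83 (1.54, 1.29 to 1.84). Of the members whose promoters are printed, Uqcrc1 was at 0.894, Cox6a1 at 1.01 and Sdhb at 0.84 in the same gate, and with TMM scaling at 0.824, 0.928 and 0.777. These had been printed because of their differences between days. The other members with the NRF1 word, Atp5g2, Atp5k, Atp5l, Ndufa11, Ndufa6, Ndufa8 and Uqcr11, lay at 0.795 to 0.924 with TMM scaling. A link between Nrf1 and these members was not tested. Tfb2m and Mterf1a of the transcription list were at 0.82 and 0.81. Of 18 RNA processing genes 2 were higher, Fastkd3 (1.33) and Fastkd5 (1.32), and 0 lower. None of 11 genes of mitochondrial DNA upkeep passed in either direction.

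Among 16 genes of cytochrome c and carriers none passed, and the lowest were Etfa (0.84) and Usmg5 (0.87). None of 14 citric acid cycle genes passed either, with Sucla2 at 0.81 and Cs, citrate synthase, at 1.07. The mitochondrial stress and quality list had 2 of 13 higher and 1 lower. Atf5, a factor of the mitochondrial stress response, went from 3.58 to 6.59 CPM (1.84) and the uncoupling protein gene Ucp2 from 27.7 to 39.4 (1.42). Clpx, of the matrix protease, went from 182 to 129 CPM (0.71), and Sod2, the matrix superoxide dismutase, from 771 to 634 (0.82). In distal cells at D7 the median log2 ratios of these 8 lists ran from -0.19 to 0.06, against -0.37 for the nuclear members and 0.04 for all genes. In thick limb cells they ran from -0.49 to -0.12, against -0.33 and -0.04, and in immune cells from -0.28 to -0.02, against -0.21 and 0.00.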

How the data were processed

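The 4 droplet libraries of mouse kidney cells, 1 per time point, were described from the deposited count matrices, whose values are whole UMI counts per gene and cell made by the authors. Per the submitters' processing notes the reads were processed with Cell Ranger 3.1.0 and the mm10 genome; per the file headers the matrix-writing software was version 3.0.1. Per the labels' protocols the libraries were 10x Genomics 3′ v2, so reads come from the 3′ ends of polyadenylated RNA. The annotation release and the calling of cells were not given in the sources used here. No column of per-sample values was left out (0).

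From these counts, cells with at least 3000 UMIs were kept, with no limit on the mitochondrial share, and gated by the marker thresholds given in the results; no doublet caller was run, and cells in 1 gate only were an alternative. UMIs were summed per gate and library. Mitochondrial genes are given as a share of all UMIs (exact binomial intervals), nuclear genes as CPM of non-mitochondrial UMIs (exact intervals of a ratio of 2 Poisson counts). Calls use CPM plus 1 and at least 50 UMIs in the pair. Positions and overlaps are from the GENCODE annotation of GRCm38, promoters from RefSeq (GRCm38.p6). Phagocyte cells had at least 3 UMIs of C1qa, C1qb, C1qc, Lyz2 and Csf1r together; lymphocyte cells at least 2 of Cd3d, Cd3e, Cd3g, Cd79a, Cd79b and Nkg7 and were no phagocyte cells. Segment cells had at least 2 UMIs of Slc7a13, or of Slc5a2 and Slc5a12 together with no Slc7a13.

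Genes were named by rule: all mitochondrial genes, the nuclear member with the highest level in each complex at D0 in proximal tubule cells, the 2 highest and 2 lowest D7 ratios per gate with at least 100 UMIs, tissue isoforms, and the 2 highest and 2 lowest of the other lists. Further members (such as Sdha, Sdhc, Uqcrfs1 and the same gene in another gate) were added after their values were seen. The members and lists were chosen with earlier results of these data known.

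Alternatives were a floor of 500 UMIs, a floor of 3000 non-mitochondrial UMIs, at most 50% mitochondrial UMIs, doubled gate thresholds, cells in 1 gate only, equal weight per cell, a pseudocount of 10, no minimum of UMIs and TMM factors (edgeR 4.0.16, R 4.3.3). The interval code was tested on simulated counts. Python 3.11.15, numpy 2.4.6, scipy 1.17.1, pandas 2.3.3 and matplotlib 3.10.9 were used.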

Additional observations from a re-analysis of the deposited data

Results flagged for a closer look

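The summed nuclear members lay on different sides of D0 in different gates on the same day. At D1 their ratio to D0 was 1.02 in the proximal tubule gate, but 0.737 in the thick limb, 0.868 in the distal and 0.855 in the immune gate. At D4 it was 1.05 in the immune gate, but 0.961 in the proximal tubule, 0.838 in the thick limb and 0.745 in the distal gate. With 1 library per time point the difference between gates was not tested. The gates of a library also share cells, and proximal tubule RNA was found in the other gates.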

How the results depend on the processing

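Each ratio to D0 was recomputed under other choices. Of 81 ratios of the mitochondrial share under these alternatives, 6 reversed, 72 moved by more than their counting interval and 3 did not. Of 93 ratios of the nuclear sum, 72 moved in this sense, 21 did not and none reversed. Where a value below differs from the reported one, the cause was not tested.

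With at most 50% mitochondrial UMIs per cell the mitochondrial share turned to 1.05 (D4) and 1.09 (D7) in the proximal tubule gate and to 1.07 (D4) and 1.02 (D7) in the immune gate. It was 0.657 at D1 in the proximal tubule, and 0.673 and 0.720 at D7 in the thick limb and distal gates. The nuclear sum was 0.957 (D4) and 0.926 (D7) in the proximal tubule, 0.789 in the thick limb and 0.745 in the distal gate at D7. A floor of 3000 non-mitochondrial UMIs turned the share to 1.01 in the proximal tubule at D7 and to 1.01 in the immune gate at D4. Other shares with that floor were 0.639 (D1) and 0.960 (D4) in the proximal tubule and 0.716, 0.652 and 0.980 at D7 in the thick limb, distal and immune gates. The nuclear sums were 0.95 (D4), 0.920 (D7), 0.779 and 0.737 for proximal tubule, thick limb and distal cells.

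With a floor of 500 UMIs the share was 0.637 (D1) and 0.861 (D4) in the proximal tubule, and 0.583, 0.656 and 0.975 at D7 in the thick limb, distal and immune gates. The nuclear sum was 1.02 (D1) and 0.932 (D7) in the proximal tubule and 0.996 in the immune gate. For cells in 1 gate only the share was 0.631, 0.870 and 0.925 at D1, D4 and D7 in the proximal tubule, and 0.512, 0.635 and 0.778 at D7 in the other gates, in the order thick limb, distal, immune. The nuclear sum was 1.03, 0.967 and 0.939, then 0.746, 0.788 and 0.906, in that same order. Doubled gate thresholds gave shares of 0.634, 0.881 and 0.944, then 0.638, 0.682 and 0.841, and nuclear sums of 1.03, 0.970 and 0.938, then 0.834, 0.769 and 0.917. They also left 23 thick limb members lower at D7 in place of 39, and 17 at D4 in place of 28.

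With equal weight per cell the shares were 0.677, 0.846 and 0.911, then 0.548, 0.651 and 0.898, and the nuclear sums 1.01, 0.993 and 0.967, then 0.816, 0.778 and 0.957. TMM factors gave nuclear sums of 1.00, 0.930 and 0.857, then 0.825, 0.731 and 0.864. Cells outside the proximal tubule gate, a setting chosen after seeing the data, had D7 shares of 0.526, 0.638 and 0.731 and nuclear sums of 0.739, 0.789 and 0.844 in the thick limb, distal and immune gates.

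Counts of members were least stable in the immune gate. Over all alternatives the members lower at D1 ran from 2 (floor of 500 UMIs) to 38 (outside the proximal tubule gate), in place of 13. Those lower at D7 ran from 1 to 23 under the same pair of settings, in place of 9, and those higher at D4 from 1 to 27, in place of 1, with 27 at the floor of 500 UMIs. Distal members lower at D1 ran from 5 to 22, in place of 6, and at D4 from 34 to 64, in place of 58. Thick limb members lower at D4 ran from 15 to 37 and at D7 from 23 to 54. In the proximal tubule TMM factors gave 4 members lower at D4 and 13 at D7, in place of 1 each.

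No paired analysis was possible because each time point has 1 library. With 89 thick limb cells at D0, depth limits members with few UMIs, such as Cox7a1 with 45, whose intervals are wide. D0 enters every ratio, so its high share of cells with over 50% mitochondrial UMIs touches every day.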
